A study of Homo sapiens with 12 samples.

Results

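Kinetochore and spindle checkpoint genes build the protein machine that holds each chromosome on the mitotic spindle, and delay chromosome separation until every chromosome is held. The genes were chosen by symbol: every symbol made of CENP and letters, plus a fixed list of outer kinetochore, checkpoint, chromosomal passenger, spindle and mitotic exit genes. This choice was made with earlier results of these data known. The rule found 50 genes among the 19516 named genes of the table, and all 50 were among the 14133 genes tested. Messenger RNA was sequenced from established human lines of triple-negative breast cancer, which lacks estrogen receptor, progesterone receptor and HER2 amplification: MDA-MB-231 and HCC1937. Cells exposed for 72 h to a water extract of the medicinal plant Kalanchoe pinnata were compared, within each line, with control cells cultured for the same time. MDA-MB-231 extract libraries E7, E8 and E9 received 140 µg/mL and had the control libraries E1, E2 and E3, all in DMEM. HCC1937 extract libraries E31, E32 and E33 received 66 µg/mL and had the control libraries E25, E26 and E27, all in RPMI. Line, medium and dose therefore cannot be told apart. The labels do not say that the 3 libraries of a group were separate cultures, so the p-values cover only library-to-library spread, and that spread may be technical.

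The kinetochore is assembled on centromeric chromatin that carries the histone variant CENP-A. Inner kinetochore proteins bind this chromatin, and the outer network of the KNL1, MIS12 and NDC80 complexes binds microtubules. Kinetochores without microtubules recruit the kinase TTK (MPS1), BUB1, BUBR1 (the product of BUB1B), BUB3, MAD1 and MAD2, which together restrain CDC20, the activator of the anaphase-promoting complex. Most of these genes are transcribed in a wave that peaks in G2 and mitosis, under control of repressor and activator complexes that bind the CHR element and CCAAT boxes of their promoters. In these bulk samples, fewer cells in mitosis and less of a transcript per cell cannot be told apart.

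Library totals ran from 16170545 to 31337431 counts. Library E7 stood apart from the other MDA-MB-231 extract libraries: its Spearman correlation across genes was 0.967 with E8 and 0.966 with E9, whereas the remaining pairs within groups had 0.997 or more. Mitochondrially encoded genes took 10.7% of the counts in E7, against 4.63% in E8 and 4.78% in E9, and 2.76% to 2.87% in MDA-MB-231 controls. Results that rest on E7 are given with and without it. The mesenchymal markers VIM, ZEB1 and FN1 summed to 3607 to 5939 CPM (the reads of a gene relative to all reads of its library, after TMM scaling) in MDA-MB-231 extract libraries and 4169 to 4294 CPM in its controls. The same sum was 12.5 to 15.2 CPM in HCC1937 extract libraries and 59.1 to 62.2 CPM in its controls. In MDA-MB-231 the sum was mostly VIM, which averaged 4286 CPM with extract and 3736 CPM in controls. ZEB1 (5.22 against 60.3 CPM) and FN1 (113 against 432 CPM) were lower with extract in that line. The epithelial genes EPCAM, CDH1, KRT8, KRT18, KRT19 and KRT5 summed to 1499 to 2625 CPM in MDA-MB-231 extract libraries and 730 to 777 CPM in its controls. That epithelial sum was 10217 to 10360 CPM in HCC1937 extract libraries and 3934 to 4060 CPM in its controls. KRT8 and KRT18 made up most of it, with HCC1937 means of 5720 and 4258 CPM with extract and 2305 and 1259 CPM in controls. KRT19 and KRT5 also had higher means with extract in HCC1937. EPCAM (94.5 against 173 CPM) and CDH1 (120 against 186 CPM) were instead lower there with extract. CDH1 and KRT5 had no read in MDA-MB-231, whereas KRT8 averaged 472 CPM and KRT18 273 CPM in MDA-MB-231 controls. ESR1 and PGR together stayed at or below 7.65 CPM in every library. Leukocyte PTPRC and CD3E were at or near 0, although CD68 was read in all groups, and the endothelial and adipocyte sums did not pass 22.9 CPM.

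Promoter sequences are shown for an outer kinetochore pair that fell in both lines, NDC80 and NUF2, and for a kinase and a checkpoint target that rose in both lines, PLK1 and CDC20, because all 4 promoters hold a CHR match. They are RefSeq sequences of build GRCh38.p14, 250 bases before to 50 after the gene start, 5′ to 3′ along the gene. Capitals mark CHR matches (TTTGAA or TTCGAA) and CCAAT boxes (CCAAT), searched on both strands. NDC80 lies at chr18:2571307-2571606, NUF2 at chr1:163321704-163322003, PLK1 at chr16:23678639-23678938 and CDC20 at chr1:43358731-43359030, all on the plus strand.
NDC80: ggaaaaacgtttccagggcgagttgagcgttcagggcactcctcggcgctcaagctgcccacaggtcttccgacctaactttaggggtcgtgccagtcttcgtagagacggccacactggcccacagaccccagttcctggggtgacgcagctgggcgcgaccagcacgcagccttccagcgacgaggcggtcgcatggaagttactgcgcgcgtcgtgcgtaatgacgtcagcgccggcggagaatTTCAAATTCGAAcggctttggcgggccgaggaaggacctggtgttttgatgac
NUF2: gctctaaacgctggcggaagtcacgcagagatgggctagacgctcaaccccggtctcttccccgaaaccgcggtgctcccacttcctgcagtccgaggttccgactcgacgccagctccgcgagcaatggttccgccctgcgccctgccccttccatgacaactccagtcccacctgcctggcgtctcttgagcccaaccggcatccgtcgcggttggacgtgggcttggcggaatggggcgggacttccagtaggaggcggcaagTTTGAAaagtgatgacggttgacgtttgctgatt
PLK1: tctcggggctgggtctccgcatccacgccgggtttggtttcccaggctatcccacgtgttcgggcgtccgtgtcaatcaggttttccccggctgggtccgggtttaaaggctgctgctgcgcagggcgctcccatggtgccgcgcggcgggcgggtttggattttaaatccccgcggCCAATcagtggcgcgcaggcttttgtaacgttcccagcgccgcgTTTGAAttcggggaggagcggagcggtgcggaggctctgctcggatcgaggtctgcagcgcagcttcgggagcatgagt
CDC20: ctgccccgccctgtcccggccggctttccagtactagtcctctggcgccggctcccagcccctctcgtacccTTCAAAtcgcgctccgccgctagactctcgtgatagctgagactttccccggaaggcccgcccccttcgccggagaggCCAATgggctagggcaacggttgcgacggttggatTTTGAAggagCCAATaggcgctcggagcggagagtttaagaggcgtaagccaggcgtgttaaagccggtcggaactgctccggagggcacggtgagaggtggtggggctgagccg

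RefSeq promoters were matched for 40 of the 50 genes. A CHR match was present in 20 of the 40, or 50%, against 16.4% of all 35116 RefSeq promoters of the same length. CCAAT boxes were present in 25 of the 40, or 62.5%, against 34.6% of all promoters. E2F motifs (TTGGCGC or TTCCCGC) were present in 8 of the 40, or 20%, against 9.23%. Among genes that fell in both lines, 10 of 16 promoters held a CHR match and 10 of 16 a CCAAT box. Among genes that rose in both lines, the counts were 3 of 9 and 5 of 9. A match describes the letters of this window and is not a measured binding site.

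Extract was accompanied by changes of both signs within the machinery, and the same genes often changed in the same direction in MDA-MB-231 and HCC1937. In MDA-MB-231, 21 of the 50 genes rose, 18 fell and 11 did not pass the test (edgeR adjusted p under 0.05), that is 42% rises against 33% of all tested genes and 36% falls against 32.8%. In HCC1937, 16 rose, 25 fell and 9 did not pass, that is 32% rises against 32.7% of all genes and 50% falls against 39.1%. Of these shares, the falls in HCC1937 were furthest from the background. In the fit without an offset, large falls were more frequent among these genes: 11 fell by 2 or more on the log2 scale in MDA-MB-231, or 22% against 8.99% of all genes, and 15 did in HCC1937, or 30% against 12.7%. With an offset that takes out each library's smooth trend with transcript length and GC content, the shares were 18% against 4.66% in MDA-MB-231, but 0% against 5.53% in HCC1937. Rises of at least 1 on the log2 scale were near the background, with 9 genes (18% against 14.9%) in MDA-MB-231 and 10 genes (20% against 16.5%) in HCC1937. The median log2 fold change of the 50 genes was 0.23 in MDA-MB-231 while HCC1937 had -0.22, against 0.00 and -0.16 over all tested genes.

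Across the lines, 18 genes fell in both (36%, against 25.3% of all genes) and 14 rose in both (28%, against 24.3%). A further 10 passed in 1 line only, 5 passed in neither, and 3 were called in opposite directions (3.9% of all genes). These 3 were NSL1, DSN1 and SPC25, outer kinetochore genes that rose in MDA-MB-231 and fell in HCC1937, although NSL1 (0.17) and SPC25 (0.19) were no longer below 0 in HCC1937 with that offset. Over the 50 genes, the log2 fold changes of the lines had a Spearman correlation of 0.932 and a Pearson correlation of 0.941, given as a description because genes are not replicates and share their libraries. Every extract library lay above every control library for 22 genes in MDA-MB-231 (32.5% of all genes) and below for 19 (35.2%). In HCC1937 these numbers were 18 (38.3%) and 25 (43.8%). Without E7, 23 genes were higher and 21 lower in MDA-MB-231 (37.3% and 37.2% of all genes). All 39 calls made with E7 held without it, and E8 and E9 lay outside the control range for all 39. For 6 of the 39, the log2 fold change was more than 1.5 times as large with E7 as without it, as given beside them.

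**Figure D1:**
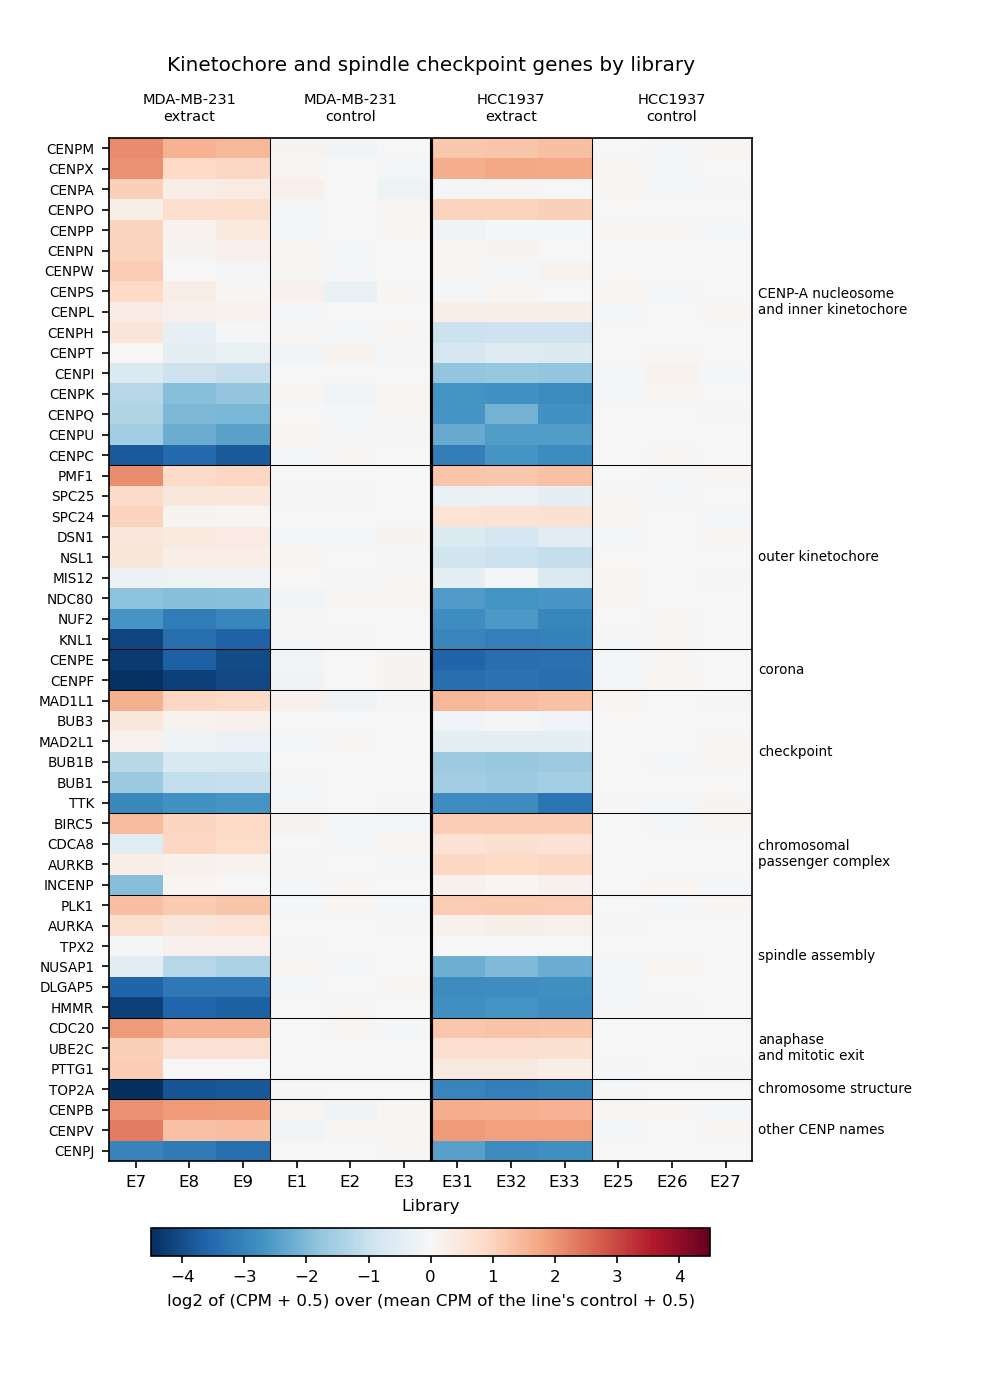
Heat map of the 50 genes (rows, grouped by role) in the 12 libraries (columns, extract left of control within each line). Colour is the log2 ratio of each library's CPM to the mean CPM of the controls of its line, with a small constant added to both. Dark blue rows of low values include CENPE, CENPF, KNL1, HMMR, DLGAP5 and TOP2A in the extract libraries of both lines, and E7 departs from E8 and E9 in rows such as INCENP and CDCA8.

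**Figure D2:**
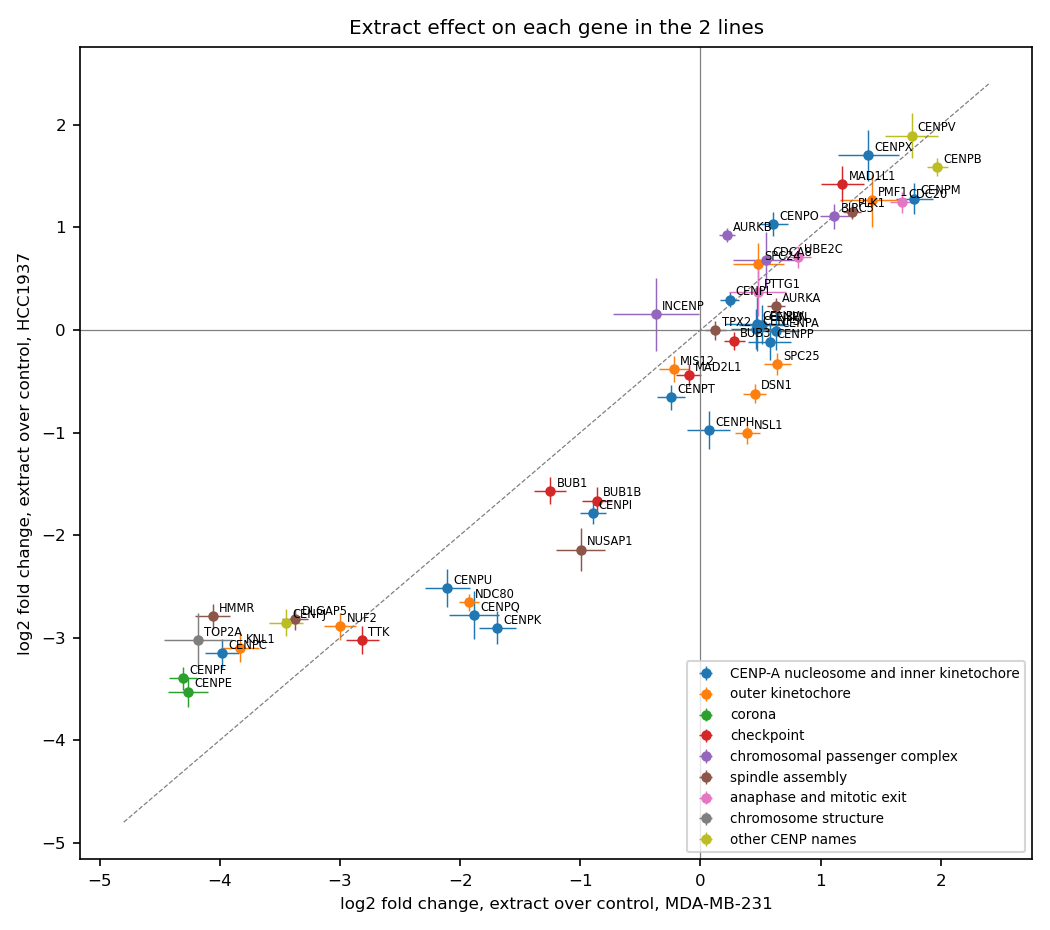
Log2 fold change of each of the 50 genes with extract over control in MDA-MB-231 (horizontal) and HCC1937 (vertical), coloured by role, with bars of 1 SE. Falls reach -4.31 for CENPF in MDA-MB-231 and -3.53 for CENPE in HCC1937, and NSL1, DSN1 and SPC25 lie right of 0 and below 0.

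The inner kinetochore held changes of both signs. Of its 16 genes, 7 rose and 5 fell in MDA-MB-231 (5 and 6 with the offset), while 4 rose and 7 fell in HCC1937 (5 and 8 with the offset). Over all tested genes, 33% rose and 32.8% fell in MDA-MB-231, and 32.7% rose and 39.1% fell in HCC1937. Changes of both signs are thus not particular to the inner kinetochore. CENPA, the histone variant that marks the centromere (Entrez gene 1058, chr2:26764289-26801067), had 44.2, 25.2 and 26.5 CPM in MDA-MB-231 extract libraries E7, E8 and E9, against 24.0, 20.1 and 17.7 CPM in controls. The extract values were all above the control values, and the highest was E7. Its log2 fold change was 0.63 ± 0.19 (SE; adjusted p = 0.0128), or 0.33 without E7, and the call was lost without control library E3 (0.53, adjusted p = 0.0561) and with the offset (0.19, adjusted p = 0.0991). In HCC1937, CENPA had 39.3, 42.6 and 41.4 CPM with extract and 43.9, 39.8 and 40.2 CPM in controls, groups that overlap, with a log2 fold change of -0.01 ± 0.19 (adjusted p = 0.985), or -0.35 with the offset, where it passed (adjusted p = 0.00431).

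CENPC, the scaffold that links CENP-A chromatin to the outer kinetochore (Entrez gene 1060, chr4:67468748-67545606), was low in every extract library. It had 1.71, 2.19 and 1.74 CPM in MDA-MB-231 extract libraries, against 28.8, 31.5 and 30.2 CPM in controls. HCC1937 had 1.42, 2.13 and 1.85 CPM with extract, against 15.8, 16.5 and 15.8 CPM in controls. The groups were far apart in both lines, with log2 fold changes of -3.98 ± 0.15 (adjusted p = 1.67e-09) in MDA-MB-231 and -3.15 ± 0.14 (adjusted p = 5.06e-09) in HCC1937.

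The CENP-H/I/K and CENP-O/P/Q/U groups, which join CENP-C in the constitutive centromere network, did not move as units. CENPI, CENPK, CENPQ and CENPU fell in both lines, with log2 fold changes of -2.11 to -0.90 in MDA-MB-231 and -2.90 to -1.78 in HCC1937. CENPK had 13.3, 8.33 and 9.35 CPM in MDA-MB-231 extract libraries, against 33.8, 30.3 and 34.7 CPM in controls. It had 4.45, 4.34 and 3.89 CPM in HCC1937 extract libraries, against 30.0, 33.5 and 31.5 CPM in controls. CENPK was thus lower in every extract library, with log2 fold changes of -1.69 ± 0.15 and, in HCC1937, -2.90 ± 0.16 (adjusted p = 1.35e-06 and 1.9e-08). CENPO, in contrast, rose in both lines, by 0.61 ± 0.12 in MDA-MB-231 and 1.03 ± 0.12 in HCC1937. CENPH fell in HCC1937 (-0.97 ± 0.18) and did not pass in MDA-MB-231 (0.07 ± 0.18), where it was -0.22 and passed without E7 (adjusted p = 0.0472). CENPP, whose locus overlaps other genes so that its reads may be shared, rose in MDA-MB-231 (0.58, or 0.31 without E7) and did not pass in HCC1937 (-0.12).

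Among the other inner genes, CENPM, a small GTPase-like subunit, rose most in MDA-MB-231. It had 67.1, 45.1 and 43.5 CPM in MDA-MB-231 extract libraries against 16.3, 13.9 and 14.9 CPM in controls, and 70.3, 72.6 and 78.2 CPM in HCC1937 extract libraries against 30.5, 28.8 and 31.6 CPM in controls. Extract values lay above control values in both lines, with log2 fold changes of 1.78 ± 0.15 (adjusted p = 1.03e-06) in MDA-MB-231 and 1.28 ± 0.15 (adjusted p = 8.97e-06) in HCC1937. CENPX, a histone-fold protein shared with the Fanconi anaemia pathway, had 155, 69.0 and 70.8 CPM in MDA-MB-231 extract libraries against 39.4, 36.6 and 35.4 CPM in controls. It had 125, 134 and 131 CPM in HCC1937 extract libraries against 41.8, 38.9 and 39.2 CPM in controls. Its rise was 1.40 ± 0.25 in MDA-MB-231 (adjusted p = 0.000421), or 0.92 without E7, and 1.70 ± 0.25 in HCC1937 (adjusted p = 7.35e-05). CENPL, which binds CENP-A nucleosomes together with CENP-N, rose slightly in both lines (0.24 ± 0.08 and, in HCC1937, 0.30 ± 0.08). CENPN rose in MDA-MB-231 (0.51, or 0.17 without E7), lost that call without any 1 of E1, E2 and E3 (0.47 to 0.54) and with the offset (0.16, adjusted p = 0.332), and did not pass in HCC1937 (0.05). CENPT, a DNA-contacting subunit, fell in HCC1937 (-0.66 ± 0.12) and had -0.24 ± 0.12 in MDA-MB-231, which passed at -0.36 without E7 and at -0.76 with the offset. CENPS, which shares reads with a readthrough transcript, and CENPW passed in neither line (0.46 and 0.01 for CENPS, 0.47 and 0.06 for CENPW, MDA-MB-231 given before HCC1937). Without E9, both passed in MDA-MB-231 (0.64 for CENPS and 0.68 for CENPW), as CENPW did without E8 (0.67), and with the offset CENPW passed in HCC1937 (0.41).

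The outer kinetochore gave 4 rises and 3 falls among 9 genes in MDA-MB-231, and 2 rises and 7 falls in HCC1937. The shares over all tested genes were 33% rises and 32.8% falls in MDA-MB-231, and 32.7% and 39.1% in HCC1937. With the offset for transcript length and GC content the 7 falls became 4, and the median in HCC1937 was 0.05 against -0.62 without it. KNL1, the scaffold that docks BUB1 and BUB3 (Entrez gene 57082, chr15:40594020-40664342), fell most in the fit without the offset. It had 2.42, 4.37 and 3.67 CPM in MDA-MB-231 extract libraries, against 48.2, 52.4 and 52.2 CPM in controls. HCC1937 had 9.79, 9.12 and 9.51 CPM with extract, against 76.6, 84.3 and 82.5 CPM in controls. The log2 fold changes were -3.83 ± 0.16 (adjusted p = 3.27e-09) in MDA-MB-231 and -3.10 ± 0.14 (adjusted p = 6.28e-09) in HCC1937, and no extract library approached its controls.

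The NDC80 complex is a rod in which NDC80 and NUF2 form the microtubule-binding end and SPC24 and SPC25 the end that meets the kinetochore. The microtubule-binding pair fell in both lines, whereas SPC24 fell in neither and SPC25 fell in HCC1937 only by a small amount. NDC80 had 11.0, 10.5 and 10.9 CPM in MDA-MB-231 extract libraries, against 38.0, 42.7 and 42.5 CPM in controls. It had 15.3, 13.7 and 14.4 CPM in HCC1937 extract libraries, against 93.8, 90.1 and 90.5 CPM in controls. NDC80 had log2 fold changes of -1.93 ± 0.08 in MDA-MB-231 (adjusted p = 4.56e-09) and -2.66 ± 0.08 in HCC1937 (adjusted p = 1.1e-09). NUF2 had 9.60, 6.64 and 7.83 CPM in MDA-MB-231 extract libraries against 66.2, 61.9 and 62.1 CPM in controls, and 4.74, 5.59 and 4.34 CPM in HCC1937 extract libraries against 35.8, 37.3 and 35.8 CPM in controls. That was a log2 fold change of -3.00 ± 0.13 in MDA-MB-231 and -2.89 ± 0.13 in HCC1937.

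SPC24 had 64.4, 33.7 and 32.7 CPM in MDA-MB-231 extract libraries, against 31.5, 31.4 and 30.3 CPM in controls, so the extract libraries E8 and E9 were barely above the controls. Its log2 fold change of 0.48 ± 0.21 did not pass in MDA-MB-231 (adjusted p = 0.0606), was 0.10 without E7, and passed without E8 (0.65) or E9 (0.65). In HCC1937, SPC24 rose by 0.64 ± 0.21 (adjusted p = 0.0147), with 57.6, 58.9 and 60.4 CPM in extract libraries and 40.1, 37.4 and 35.6 CPM in controls, but that call was lost with the offset (0.05, adjusted p = 0.816). SPC25 had 22.5, 17.5 and 16.9 CPM in MDA-MB-231 extract libraries against 12.7, 11.5 and 12.1 CPM in controls, a rise of 0.64 ± 0.11 (adjusted p = 0.000362). In HCC1937 it had 32.4, 33.3 and 30.3 CPM with extract against 42.1, 39.2 and 39.6 CPM in controls, a log2 fold change of -0.33 ± 0.11 (adjusted p = 0.0147). That fall was lost without E25 (-0.30), without E33 (-0.27), with size-factor scaling (-0.24, adjusted p = 0.0725) and with the offset (0.19, adjusted p = 0.161). Per kilobase of transcript, the log2 ratio of NDC80 and NUF2 to SPC24 and SPC25 was -2.16, -1.74 and -1.57 in MDA-MB-231 extract libraries and 1.15, 1.21 and 1.22 in controls. In HCC1937 it was -2.37, -2.45 and -2.46 in extract libraries and 0.34, 0.42 and 0.42 in controls. The ratio was thus lower in all extract than in all control libraries. Its sign, negative with extract and positive in controls, depends on the annotated transcript lengths used.

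The MIS12 complex joins the inner and outer layers and has the subunits MIS12, DSN1, NSL1 and PMF1. MIS12 had 23.5, 24.5 and 25.5 CPM in MDA-MB-231 extract libraries against 28.6, 27.8 and 29.4 CPM in controls (log2 fold change -0.22 ± 0.12, adjusted p = 0.137). In HCC1937 it had 9.96, 12.7 and 8.45 CPM with extract against 14.3, 13.6 and 12.6 CPM in controls (-0.38 ± 0.13, adjusted p = 0.0196). The MDA-MB-231 extract libraries lay below their controls, whereas the HCC1937 groups overlap. The HCC1937 call was lost without E25 (-0.34), E31 (-0.33) or E33 (-0.23) and turned to 0.41 with the offset. NSL1 had 25, 20.5 and 20.6 CPM in MDA-MB-231 extract libraries against 17.8, 16.9 and 15.6 CPM in controls, but 10.1, 9.56 and 8.86 CPM in HCC1937 extract libraries against 18.7, 19.3 and 19.3 CPM in controls. Extract libraries were higher in MDA-MB-231 (0.39 ± 0.10, adjusted p = 0.0051) and lower in HCC1937 (-1.01 ± 0.10, adjusted p = 3.16e-06), where the offset value was 0.17 (adjusted p = 0.152). DSN1 showed the same opposition, with 0.45 ± 0.09 in MDA-MB-231 while HCC1937 had -0.62 ± 0.09. PMF1, whose reads may be shared with the PMF1-BGLAP readthrough gene, had 119.7, 50.7 and 53.5 CPM in MDA-MB-231 extract libraries against 27, 27.8 and 28.3 CPM in controls. HCC1937 had 138, 133 and 143 CPM with extract against 57.7, 55.7 and 59.1 CPM in controls. PMF1 rose by 1.42 ± 0.26 in MDA-MB-231 (adjusted p = 0.000501), or 0.92 without E7, and by 1.26 ± 0.26 in HCC1937 (adjusted p = 0.000867).

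**Figure D3:**
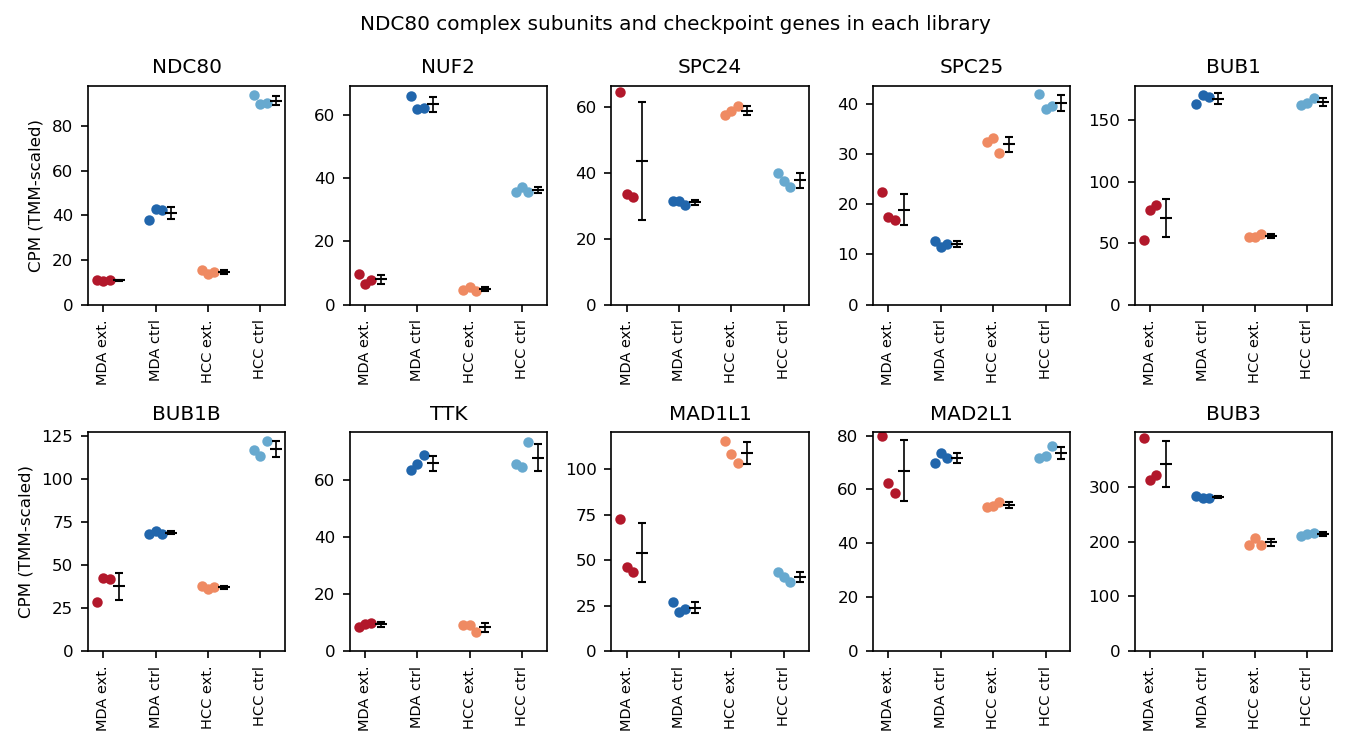
CPM of the 4 NDC80 complex subunits and the 6 checkpoint genes, with a linear axis from 0 in each panel and extract left of control for each line. Points are the 3 libraries of a group, and the black marks are their mean ± SD. NDC80, NUF2 and TTK are low in all extract libraries, and SPC24 in E7 (64.4 CPM) lies away from E8 and E9.

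The corona genes CENPE and CENPF had the largest falls of the 50 genes in both lines. CENPE, the kinesin that carries chromosomes to the spindle equator (Entrez gene 1062, chr4:103105806-103198409), had 1.35, 2.42 and 1.74 CPM in MDA-MB-231 extract libraries against 33.5, 36.3 and 39.7 CPM in controls. HCC1937 had 7.16, 8.52 and 8.56 CPM with extract against 89.6, 97.0 and 93.0 CPM in controls. CENPE was 19.2-fold lower in MDA-MB-231 (log2 fold change -4.26 ± 0.17, adjusted p = 2.48e-09) and 11.5-fold lower in HCC1937 (-3.53 ± 0.15, adjusted p = 3.46e-09). CENPF, a large dynein-linked coiled-coil protein (Entrez gene 1063, chr1:214603195-214664588), had 6.19, 7.44 and 8.19 CPM in MDA-MB-231 extract libraries against 131, 148 and 156 CPM in controls. HCC1937 libraries had 21.5, 22.5 and 21.2 CPM with extract against 221, 242 and 224 CPM in controls. CENPF was 19.8-fold lower in MDA-MB-231 (-4.31 ± 0.12, adjusted p = 4.41e-10) and 10.5-fold lower in HCC1937 (-3.40 ± 0.11, adjusted p = 1.1e-09). Every extract library of either line was far below its controls for both genes.

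Checkpoint kinases fell while the adaptors diverged. Of 6 checkpoint genes, 2 rose and 3 fell in MDA-MB-231, and 1 rose and 4 fell in HCC1937 (3 higher and 3 lower in each line with the offset). Among all tested genes, 33% rose and 32.8% fell in MDA-MB-231, and 32.7% rose and 39.1% fell in HCC1937. TTK, the kinase that starts the signal, had 8.39, 9.67 and 9.97 CPM in MDA-MB-231 extract libraries against 63.6, 65.7 and 68.8 CPM in controls. HCC1937 had 9.27, 9.24 and 6.53 CPM with extract against 65.8, 64.7 and 73.5 CPM in controls. TTK's log2 fold change was -2.81 ± 0.14 (adjusted p = 9.88e-09) in MDA-MB-231 and -3.03 ± 0.14 (adjusted p = 5.06e-09) in HCC1937. BUB1, the kinase that marks centromeric chromatin, had 52.4, 77.3 and 81.4 CPM in MDA-MB-231 extract libraries against 163, 171 and 169 CPM in controls. In HCC1937, BUB1 had 54.7, 54.7 and 57.4 CPM with extract against 162, 164 and 168 CPM in controls. BUB1 thus fell in MDA-MB-231 (-1.25 ± 0.13, adjusted p = 6.23e-06) and in HCC1937 (-1.57 ± 0.13, adjusted p = 7.11e-07). BUB1B, which encodes a subunit of the mitotic checkpoint complex, had 28.6, 42.5 and 42.1 CPM in MDA-MB-231 extract libraries against 68.3, 69.9 and 68.1 CPM in controls. It had 37.9, 36.0 and 37.4 CPM in HCC1937 extract libraries against 117, 113 and 122 CPM in controls. The fall in HCC1937 (-1.66 ± 0.13, adjusted p = 3.01e-07) was deeper than in MDA-MB-231 (-0.86 ± 0.13, adjusted p = 9.24e-05), a difference of -0.80 ± 0.18 (adjusted p = 0.00533).

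MAD1L1, which holds MAD2 at unattached kinetochores, rose. It had 72.7, 46.3 and 43.3 CPM in MDA-MB-231 extract libraries against 27.2, 21.2 and 22.9 CPM in controls, and 115, 108 and 103 CPM in HCC1937 extract libraries against 43.3, 40.7 and 38.0 CPM in controls. Extract libraries were above controls in both lines, with log2 fold changes of 1.18 ± 0.18 (adjusted p = 0.000101) in MDA-MB-231 and 1.42 ± 0.17 (adjusted p = 1.51e-05) in HCC1937. Its partner MAD2L1, which encodes MAD2, had 79.8, 62.3 and 58.8 CPM in MDA-MB-231 extract libraries against 69.7, 73.5 and 71.5 CPM in controls. Those groups overlap (-0.10 ± 0.10, adjusted p = 0.432), but without E7 the value was -0.23 and passed (adjusted p = 0.000392). In HCC1937, MAD2L1 had 53.5, 53.7 and 55.4 CPM with extract against 71.7, 72.5 and 76.1 CPM in controls (-0.44 ± 0.10, adjusted p = 0.00256), a fall that turned to 1.06 with the offset (adjusted p = 2.26e-06). BUB3, the adaptor that carries BUB1 and BUBR1 to KNL1, had 389.7, 313 and 322 CPM in MDA-MB-231 extract libraries against 283, 280.0 and 280.4 CPM in controls. It rose there by 0.28 ± 0.09 (adjusted p = 0.0137), or 0.18 without E7, and the call was lost when only the 6 MDA-MB-231 libraries were fitted (adjusted p = 0.0929). In HCC1937, BUB3 had 195, 206 and 194 CPM with extract against 210.2, 214 and 217 CPM in controls (-0.11 ± 0.09, adjusted p = 0.289), and 1.30 with the offset (adjusted p = 1.77e-06).

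Of 4 chromosomal passenger genes, 2 rose and 0 fell in MDA-MB-231, and 3 rose and 0 fell in HCC1937. Over all tested genes, 33% rose and 32.8% fell in MDA-MB-231, and 32.7% rose and 39.1% fell in HCC1937. With the offset, 1 was higher and 1 (AURKB) lower in MDA-MB-231, and 1 was higher and 0 lower in HCC1937. The chromosomal passenger complex corrects wrong microtubule attachments. AURKB is its kinase, INCENP its scaffold, and BIRC5 (survivin) and CDCA8 (borealin) are targeting subunits. AURKB had 180.0, 168 and 164 CPM in MDA-MB-231 extract libraries against 150.1, 148 and 141 CPM in controls, a rise of 0.22 ± 0.07 (adjusted p = 0.0132) that was lost without E3 (0.20) and turned to -0.43 with the offset for length and GC content. In HCC1937 it had 99.5, 96.0 and 99.4 CPM with extract against 53.0, 51.3 and 51.0 CPM in controls, a rise of 0.93 ± 0.07 (adjusted p = 2.27e-07) that was lost with the offset (0.04). BIRC5 rose in both lines, by 1.11 ± 0.12 in HCC1937 and 1.12 ± 0.12 in MDA-MB-231, with a difference of -0.01 ± 0.17. INCENP had 22.2 CPM in E7, against 90.5 and 84.9 CPM in E8 and E9 and 81.3, 88.3 and 87.2 CPM in MDA-MB-231 controls. CDCA8 likewise had 41.5 CPM in E7, against 116 and 109 CPM in E8 and E9 and 60.5, 57.2 and 64.8 CPM in controls. CDCA8 did not pass in MDA-MB-231 with E7 (0.55 ± 0.27) and passed without it (0.89, adjusted p = 8.02e-15). In HCC1937 its rise (0.68 ± 0.27, adjusted p = 0.0406) was lost without any 1 of the 6 HCC1937 libraries (adjusted p 0.0666 to 0.0915) and with the offset (0.21). The spread of E7 enters this SE, because all groups share 1 estimate of spread. The CDCA8 call held when only the 6 HCC1937 libraries were fitted. INCENP passed in neither line (-0.37 in MDA-MB-231, or 0.04 without E7, and 0.15 in HCC1937), and in HCC1937 it passed at 0.21 when only those 6 libraries were fitted.

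Spindle assembly genes split into 3 falls, 2 rises and 1 gene that did not pass in each line. All tested genes had 32.8% falls and 33% rises in MDA-MB-231, and 39.1% and 32.7% in HCC1937. HMMR, which encodes a spindle pole protein that binds hyaluronan, had 1.21, 2.19 and 2.01 CPM in MDA-MB-231 extract libraries against 30.8, 32.2 and 30.7 CPM in controls. HMMR in HCC1937 had 13.6, 14.2 and 13.3 CPM with extract against 91.8, 97.4 and 95.3 CPM in controls. HMMR was 16.7-fold lower in MDA-MB-231 (-4.06 ± 0.15, adjusted p = 1.56e-09) and 6.93-fold lower in HCC1937 (-2.79 ± 0.12, adjusted p = 4.82e-09). DLGAP5 (HURP), which stabilises microtubules near chromosomes, fell in both lines (-3.37 ± 0.11 in MDA-MB-231 and -2.82 ± 0.11 in HCC1937). NUSAP1, a microtubule bundling protein, had 96.4, 54.6 and 48.8 CPM in MDA-MB-231 extract libraries against 136, 129 and 133 CPM in controls, and 42.3, 49.1 and 41.6 CPM in HCC1937 extract libraries against 188, 207 and 192 CPM in controls. NUSAP1 had log2 fold changes of -1.0 ± 0.20 (adjusted p = 0.00103) in MDA-MB-231 and -2.14 ± 0.21 (adjusted p = 2.18e-06) in HCC1937.

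The mitotic kinases PLK1 and AURKA rose in both lines. PLK1 had 218, 196 and 204 CPM in MDA-MB-231 extract libraries against 83.1, 90.9 and 83.4 CPM in controls, and 354, 358 and 351 CPM in HCC1937 extract libraries against 161, 153 and 164 CPM in controls. PLK1 rose by 1.26 ± 0.07 in MDA-MB-231 (adjusted p = 4.28e-08) and by 1.16 ± 0.07 in HCC1937 (adjusted p = 5.67e-08), with no overlap of the groups. AURKA rose by 0.63 ± 0.07 and, in HCC1937, by 0.24 ± 0.07. TPX2, which activates AURKA on the spindle, had a log2 fold change of 0.12 ± 0.09 in MDA-MB-231 and -0.00 ± 0.09 in HCC1937 and passed in neither, although it passed in MDA-MB-231 at 0.23 without E7, and with the offset in MDA-MB-231 (0.16) and HCC1937 (0.17).

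Of 3 genes of anaphase onset, 2 rose and 0 fell in MDA-MB-231, and 2 rose and 0 fell in HCC1937. With the offset, 2 were higher and 0 lower in MDA-MB-231, and 1 was higher and 1 lower in HCC1937. Over all tested genes, 33% rose and 32.8% fell in MDA-MB-231, and 32.7% rose and 39.1% fell in HCC1937. CDC20 had 699, 536 and 533 CPM in MDA-MB-231 extract libraries against 187, 189 and 175 CPM in controls. HCC1937 had 647, 671 and 655 CPM with extract against 280.1, 274 and 277 CPM in controls. CDC20 rose 3.21-fold in MDA-MB-231 (1.68 ± 0.11, adjusted p = 7.86e-08) and 2.37-fold in HCC1937 (1.25 ± 0.10, adjusted p = 5.82e-07), with every extract library above its controls. UBE2C, the ubiquitin-conjugating enzyme of the anaphase-promoting complex, rose by 0.81 ± 0.11 in MDA-MB-231 and 0.71 ± 0.11 in HCC1937, a call lost in HCC1937 with the offset (0.09). PTTG1 (securin), which has near-identical copies that may share its reads, had 369 CPM in E7 but 169.6 and 172 CPM in E8 and E9, against 171, 169 and 171 CPM in controls. It passed in neither line (0.48 ± 0.24 in MDA-MB-231, or 0.01 without E7, and 0.37 ± 0.24 in HCC1937), although it passed in MDA-MB-231 without E8 (0.68) or E9 (0.66). In HCC1937, PTTG1 passed as a rise of 0.43 (adjusted p = 7.33e-10) when only the HCC1937 libraries were fitted. With the offset it passed there in the other direction, at -0.18.

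TOP2A, the topoisomerase that untangles sister chromatids, had 13.3, 33 and 34.4 CPM in MDA-MB-231 extract libraries against 477, 500.2 and 502 CPM in controls. In HCC1937 it had 80.7, 75.2 and 79.2 CPM with extract against 621, 655 and 642 CPM in controls. TOP2A was 18.2-fold lower in MDA-MB-231 (-4.18 ± 0.28, adjusted p = 1.33e-07) and 8.15-fold lower in HCC1937 (-3.03 ± 0.26, adjusted p = 8.41e-07). Of the CENP-named genes outside the core kinetochore, CENPB, which binds a motif in centromeric satellite DNA, rose most in MDA-MB-231. It had 121, 111 and 107 CPM in MDA-MB-231 extract libraries against 29.7, 26 and 30.6 CPM in controls, and 337, 331 and 321 CPM in HCC1937 extract libraries against 112, 114 and 102 CPM in controls. CENPB rose 3.92-fold in MDA-MB-231 (1.97 ± 0.09, adjusted p = 6.45e-09) and 3.02-fold in HCC1937 (1.59 ± 0.09, adjusted p = 1.92e-08). CENPV, which has near-identical copies that may share its reads, had 66.4, 33.9 and 34.2 CPM in MDA-MB-231 extract libraries against 12.0, 13.8 and 13.8 CPM in controls. CENPV in HCC1937 had 82.4, 79.4 and 79.5 CPM with extract against 20.8, 21.1 and 22.9 CPM in controls. CENPV rose by 1.76 ± 0.22 in MDA-MB-231 (adjusted p = 2.65e-05), or 1.37 without E7, and by 1.90 ± 0.22 in HCC1937 (adjusted p = 8.63e-06). CENPJ, a centriole protein, fell in both lines (-3.45 ± 0.14 in MDA-MB-231 and -2.85 ± 0.13 in HCC1937).

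The genes that fell and the genes that rose differed in base composition and length, 2 properties that the symbol rule does not name. The contrast is seen in a stretch of 90 bases from the middle of the coding sequence of CENPE (coding bases 4006 to 4095), which fell, and of CENPB (853 to 942), which rose, taken from the longest protein-coding transcript in GENCODE 29 on GRCh38, with G and C in capitals.
CENPE: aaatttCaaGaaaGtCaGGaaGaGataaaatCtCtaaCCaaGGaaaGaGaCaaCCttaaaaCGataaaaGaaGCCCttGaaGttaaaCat
CENPB: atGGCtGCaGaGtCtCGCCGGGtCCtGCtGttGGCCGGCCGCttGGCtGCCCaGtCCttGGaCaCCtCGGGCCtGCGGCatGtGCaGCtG

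G and C make up 32.2% of the CENPE stretch and 68.9% of the CENPB stretch, and 35.3% of 8612 bases against 66.2% of 2840 bases in the whole transcripts. Of the 21 genes with at most 42% GC, 3 rose and 15 fell in MDA-MB-231, and 0 rose and 19 fell in HCC1937. Of the 16 genes above 50% GC, 12 rose and 0 fell in MDA-MB-231, and 13 rose and 1 fell in HCC1937, the fall being CENPT. The 13 genes between these limits were mixed, with 6 rises and 3 falls in MDA-MB-231 and 3 rises and 5 falls in HCC1937. All tested genes showed the same order: at most 42% GC, 7.61% rose and 68.7% fell in MDA-MB-231, and above 50% GC, 48% rose and 14.2% fell. In HCC1937, 2.73% rose and 78.6% fell in the low class, and 53.7% rose and 16.8% fell in the high class. The median log2 fold change of the low class was -2.11 for the kinetochore and checkpoint genes and -1.07 for all genes in MDA-MB-231, and -2.79 and -1.59 in HCC1937. As a description across genes, the Spearman correlation of log2 fold change with GC content was 0.761 in MDA-MB-231 while HCC1937 had 0.843 over the 50 genes, and 0.470 and 0.552 over 14054 genes. With transcript length it was -0.517 and -0.484 over the 50 genes, and -0.390 and -0.373 over all.

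**Figure D4:**
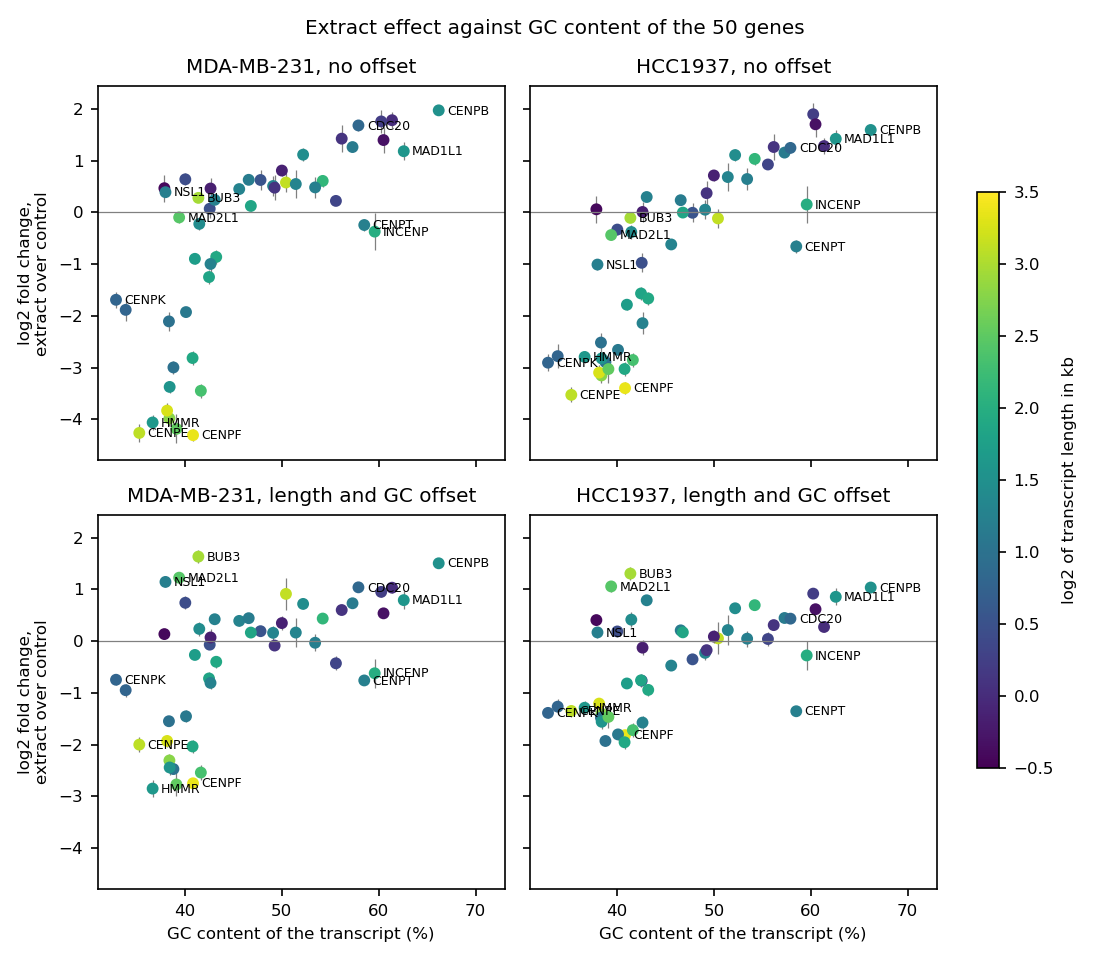
Log2 fold change of the 50 genes with extract over control against the GC content of the transcript in percent, for MDA-MB-231 (left) and HCC1937 (right), without the offset (top) and with it (bottom). Points are genes coloured by the log2 of transcript length in kilobases, and bars are 1 SE. Without the offset, CENPE (35.3% GC) lies at the bottom left and CENPB (66.2% GC) at the top right, and with it the lowest points in HCC1937 stay above -2.

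A fit with an offset for the smooth trend of each library with transcript length and GC content gave 18 of the 18 falls and 18 of the 21 rises in MDA-MB-231 the same call, and 21 of the 25 falls and 12 of the 16 rises in HCC1937. With this offset, 20 of the 50 genes were higher and 20 lower in MDA-MB-231 (37.5% and 27.8% of all genes), and 17 were higher and 23 lower in HCC1937 (33.6% and 33.8%). All 18 genes that fell in both lines were also lower in both with the offset, and 12 of the 14 that rose in both were higher in both; in all, 19 genes were lower in both (18.3% of all genes) and 15 higher in both (24.3%). CENPF then had -2.75 in MDA-MB-231 and -1.82 in HCC1937, CENPE -2.0 and -1.35, NDC80 -1.45 and -1.80, TTK -2.04 and -1.96, and KNL1 -1.93 and -1.21. CENPB had 1.5 and 1.03, CDC20 1.04 and 0.43, MAD1L1 0.79 and 0.86, and PLK1 0.73 and 0.45. Falls of 2 or more on the log2 scale numbered 9 in MDA-MB-231 (18% against 4.66% of all genes) and 0 in HCC1937 (5.53% of all genes). Rises of at least 1 numbered 6 (12% against 12.8%) in MDA-MB-231 and 3 (6% against 9.57%) in HCC1937. With the offset MAD2L1 became 1.23 in MDA-MB-231, against -0.10 without it, while HCC1937 had 1.06 against -0.44. BUB3 became 1.63 in MDA-MB-231 and 1.30 in HCC1937, against 0.28 and -0.11. Their values rest on long annotated transcripts of 5468 and 7828 bases, and which transcript the cells used was not measured. How much of each change goes with base composition and length through the preparation of the libraries, and how much through the cells, was not tested.

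The extract effect differed between the lines (HCC1937 effect minus MDA-MB-231 effect, tested in 1 model) for 23 of the 50 genes, 9 with a positive difference, where 11.5% of all genes had one, and 14 with a negative difference, where 20.6% did. Without E7 the counts were 17 (24.7%) and 22 (33.3%), and with the offset 11 (15.2%) and 14 (24.5%). The positive differences were led by HMMR (1.27 ± 0.19, adjusted p = 0.0004), TOP2A (1.16 ± 0.35, adjusted p = 0.0258) and CENPF (0.91 ± 0.15, adjusted p = 0.000769), whose falls were smaller in HCC1937 than in MDA-MB-231. The call for TOP2A was lost without any 1 of 7 libraries, namely E2, E3, E25, E26, E27, E31 and E33 (1.13 to 1.17, adjusted p 0.0507 to 0.0591). Without E7 the TOP2A call held, at a smaller difference of 0.86. KNL1, CENPC and CENPE also had positive differences, of 0.73, 0.83 and 0.74, with CENPE lost without E3 or E9 (0.67 in both). The negative differences were led by NSL1 (-1.40 ± 0.14, adjusted p = 3.59e-05), CENPK (-1.22 ± 0.21, adjusted p = 0.00128) and NUSAP1 (-1.14 ± 0.29, adjusted p = 0.00995). For all of these, E7 had the highest CPM of the MDA-MB-231 extract libraries. DSN1 (-1.07), CENPH (-1.05), SPC25 (-0.97) and NDC80 (-0.73) were further genes with a lower value in HCC1937, and the NDC80 difference was lost with the offset (-0.35, adjusted p = 0.107). These comparisons share no libraries between the lines, but the dose and medium differ with the line.

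Untreated HCC1937 and MDA-MB-231 differed at 32 of the 50 genes: 21 were higher in HCC1937 controls, where 38.7% of all genes were, and 11 were lower, where 36.7% were. With the length and GC offset, 32 were higher and 8 lower (46.2% and 35.9%), and the median over all genes moved to 0.19, against 0.04. Every HCC1937 control lay above every MDA-MB-231 control for 27 genes (45.3% of all genes) and below for 16 (43%). CENPB was 3.80-fold higher in HCC1937 controls (log2 difference 1.93 ± 0.09), SPC25 3.33-fold (1.74 ± 0.11), HMMR 3.04-fold (1.60 ± 0.12) and CENPE 2.55-fold (1.35 ± 0.13). NDC80 was 2.23-fold higher in HCC1937 (1.16 ± 0.08) while its partner NUF2 was lower (-0.81 ± 0.12). AURKB was lowest in HCC1937 relative to MDA-MB-231 (-1.50 ± 0.07), followed by MIS12 (-1.09 ± 0.13) and CENPC (-0.91 ± 0.12). TTK (0.04), BUB1 (-0.02), MAD2L1 (0.04) and CENPH (-0.03) did not pass. With the offset these 4 were higher in HCC1937 controls (TTK 0.60, BUB1 0.43, MAD2L1 0.68 and CENPH 0.32), and the CENPC call was lost (-0.23, adjusted p = 0.0541). Per kilobase of transcript, the mean levels were highest for UBE2C and CDC20 in extract libraries of both lines: 414 and 332 CPM per kb in MDA-MB-231 extract and 258 and 370 CPM per kb in HCC1937 extract. In controls UBE2C had 236 and PTTG1 159 CPM per kb in MDA-MB-231, and UBE2C 157 and CDC20 156 CPM per kb in HCC1937. Within MDA-MB-231 extract libraries, the lowest levels were those of CENPE (0.21 CPM per kb), CENPC (0.27) and KNL1 (0.36).

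Counts of genes that work with this machinery stand against the same background, 33% rises and 32.8% falls over all tested genes in MDA-MB-231 and 32.7% and 39.1% in HCC1937. Of 15 kinetochore partners, 4 rose and 9 fell in MDA-MB-231, and 2 rose and 12 fell in HCC1937. With the offset, 7 were higher and 6 lower in MDA-MB-231, where the median became 0.28 against -0.96, and 2 were higher and 9 lower in HCC1937, with a median of -0.31 against -1.14. KNTC1, a subunit of the RZZ complex that recruits dynein, had log2 fold changes of -2.78 ± 0.18 in MDA-MB-231 and -2.87 ± 0.19 in HCC1937. SPDL1, a dynein adaptor, had -2.32 ± 0.17 and, in HCC1937, -3.02 ± 0.17. ITGB3BP, the gene for CENP-R, which the symbol rule does not match, also fell (-1.16 ± 0.28 and, in HCC1937, -2.24 ± 0.28). The dynein cofactor NUDC rose by 1.23 ± 0.21 and, in HCC1937, by 1.83 ± 0.21. SKA1, a subunit of the complex that tracks microtubule ends, rose in MDA-MB-231 (0.94 ± 0.11) and fell in HCC1937 (-0.58 ± 0.12), a fall that was lost with the offset (-0.03, adjusted p = 0.849). HJURP, the gene for the CENP-A chaperone, fell in MDA-MB-231 (-0.88 ± 0.08) and did not pass in HCC1937 (-0.06 ± 0.08), where it passed at -0.20 with the offset (adjusted p = 0.0172).

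Of 16 genes of checkpoint silencing and cohesion, 5 rose and 9 fell in MDA-MB-231, and 4 rose and 10 fell in HCC1937. With the offset, 4 were higher and 7 lower in MDA-MB-231 (median -0.09, against -1.15 without it), and 5 were higher and 8 lower in HCC1937 (-0.31, against -1.73). The cohesin subunit SMC3 averaged 7.22 CPM in MDA-MB-231 extract libraries and 122 CPM in controls (-4.08 ± 0.09), and 8.01 CPM in HCC1937 extract libraries and 67.9 CPM in controls (-3.08 ± 0.09). SGO2, which protects centromeric cohesion, fell as well (-3.46 ± 0.17 and, in HCC1937, -3.57 ± 0.16). TRIP13, the ATPase that dismantles active MAD2, rose by 0.67 ± 0.09 and, in HCC1937, by 0.37 ± 0.09. Of 8 condensin genes, 1 rose and 6 fell in each line (6 and, in HCC1937, 5 lower with the offset), and the shared subunit SMC4 was among the falls (-4.27 ± 0.18 and, in HCC1937, -3.21 ± 0.16). Of 17 genes of the anaphase-promoting complex and its regulators, 6 rose and 3 fell in MDA-MB-231, and 8 rose and 4 fell in HCC1937, with rises in MDA-MB-231 near the background share. With the offset, 9 were higher and 3 lower in MDA-MB-231, while the HCC1937 counts stayed at 8 and 4. UBE2S, which extends ubiquitin chains for that complex, rose by 1.68 ± 0.19 and, in HCC1937, by 1.99 ± 0.19, whereas FBXO5 (EMI1), which inhibits the complex, fell (-1.70 ± 0.08 and, in HCC1937, -1.95 ± 0.08).

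Of 16 genes of mitotic entry and G2/M transcription, 6 rose and 5 fell in MDA-MB-231, and 7 rose and 7 fell in HCC1937; the MDA-MB-231 shares are close to the background. With the offset, 8 were higher and 4 lower in MDA-MB-231, while HCC1937 had 6 and 6. The transcription factor genes MYBL2 and FOXM1, whose products activate CHR promoters, rose in both lines: MYBL2 by 1.26 ± 0.07 in MDA-MB-231 and 1.43 ± 0.07 in HCC1937, and FOXM1 by 0.51 ± 0.18 and 0.73 ± 0.18. With the offset the FOXM1 calls were lost, at 0.22 (adjusted p = 0.163) in MDA-MB-231 and 0.25 (adjusted p = 0.105) in HCC1937. CCNB1 (cyclin B1) averaged 542 CPM in MDA-MB-231 extract libraries and 266 CPM in controls (1.03 ± 0.14), and 289 CPM in HCC1937 extract libraries and 202 CPM in controls (0.52 ± 0.14). Its kinase partner CDK1 moved the other way, with -0.92 ± 0.20 in MDA-MB-231 while HCC1937 had -1.79 ± 0.21. MKI67, the proliferation antigen, had -3.12 ± 0.29 in MDA-MB-231 and -1.97 ± 0.28 in HCC1937.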

How the data were processed

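The deposited table holds expected counts, the estimated reads per gene. Per the submitters' processing notes, the authors' tools were FastQC 0.12.1, fastp 0.23.4, Salmon 1.10.3 and DESeq2 in R 4.4.1, with GRCh38. For the annotation release and transcript-to-gene step, the entry is not given in the sources used here. Per the labels' protocols, poly-T beads were used to capture messenger RNA, and the named kit is one for total RNA. Groups come from the sample titles. Of the deposited expected counts, 52.8% were not whole and were rounded. The 1 row without a symbol held no counts (0%) and was left out.

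The counts were tested with edgeR 4.0.16 (R 4.3.3): filterByExpr (14133 genes kept), TMM scaling, 1 model of 4 groups over all 12 libraries, and the quasi-likelihood F test with Benjamini-Hochberg adjustment over all genes tested, called at an adjusted p under 0.05. In 4 comparisons, extract was set against control in each line, the effects were compared between lines, and HCC1937 controls were set against MDA-MB-231 controls. The 4 groups share 1 estimate of spread per gene. The biological coefficient of variation (relative spread between libraries) was 0.296 within MDA-MB-231 extract, which holds E7, and 0.0409 to 0.0449 within the other groups. Where E7 departs, SEs of comparisons without that group can be too wide, and SEs of comparisons with it too narrow. CPM are scaled by TMM, so every change is a change relative to most other genes. Values after ± are SE. At 3 counts, a library's floor was 0.0990 to 0.213 CPM, counting error only. Transcript length and GC content come from GENCODE 29 (the longest protein-coding transcript, 99.4% of genes tested). The offset subtracts a smooth surface over both, fitted per library with mgcv 1.9.3. Alternatives were size-factor scaling, the DESeq2 1.42.0 Wald test, no filter on low counts, the offset (also from the shortest principal transcript, added after seeing the data), only the libraries compared, and leaving out each library. The steps were tested on simulated data.

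The genes and lists were chosen with earlier results of these data known. Genes given with values in every library were the 5 largest rises and falls per line without overlap of the groups, the 3 largest differences between lines each way, and the checkpoint genes with NDC80, KNL1, MIS12, CENPA, AURKB and CDC20. NUF2, SPC24, SPC25, PLK1, INCENP and CDCA8 were added after their values were seen.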

Additional observations from a re-analysis of the deposited data

Results flagged for a closer look

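The extract effect differed between HCC1937 and MDA-MB-231, by the test of the difference itself, for 23 of the 50 genes (HCC1937 minus MDA-MB-231, log2). The line, dose and medium cannot be told apart. Positive differences, where HCC1937 was less low or higher, were 1.27 for HMMR, 1.16 for TOP2A, 0.91 for CENPF, 0.83 for CENPC, 0.74 for CENPE, 0.73 for KNL1, 0.70 for AURKB, 0.59 for CENPJ and 0.55 for DLGAP5. Of these 9, AURKB rose more in HCC1937 and the other 8 fell less. Negative differences were -1.40 for NSL1, -1.22 for CENPK, -1.14 for NUSAP1, -1.07 for DSN1, -1.05 for CENPH, -0.97 for SPC25, -0.89 for CENPQ, -0.89 for CENPI, -0.80 for BUB1B and -0.73 for NDC80. Smaller ones were -0.43 for CDC20, -0.39 for AURKA, -0.39 for BUB3 and -0.38 for CENPB. Of the 23 calls, 7 were lost without at least 1 library: BUB3 and CDC20 in 9 of 12 fits that each left out 1 library, CENPB, CENPJ and CENPQ in 8, TOP2A in 7 and CENPE in 2. Adjusted p in those fits ran from 0.0507 to 0.128. With the offset for length and GC content, 5 of the 23 calls were lost, among them AURKB, NDC80 and CENPQ (-0.32, adjusted p = 0.222). Size-factor scaling also lost 5 calls, those of CENPB, CENPQ, BUB3, AURKA and CDC20. Groups of 3 libraries are too small for a test of single outlying libraries.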

How the results depend on the processing

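No paired analysis was possible because the library numbers differ between all groups. Counts of higher and lower genes stayed within 1.5 times the reported ones, with these exceptions. For the difference between lines, 17 positive and 22 negative calls without E7, against 9 and 14, and 9 negative calls with size-factor scaling, where the median over all genes was -0.05 against -0.16. For HCC1937 over MDA-MB-231 controls, 32 higher with the length and GC offset and 33 with an offset from the shortest principal transcript, against 21. The principal-transcript offset was chosen after seeing the data. With only the 6 MDA-MB-231 libraries fitted, 15 genes rose in MDA-MB-231, against 21. The calls lost in that fit were those of CENPA, CENPL, CENPN, CENPP, BUB3 and AURKB (adjusted p 0.0652 to 0.12). Leaving out each library gave 18 to 25 higher and 18 to 21 lower genes in MDA-MB-231, 15 higher and 23 to 25 lower in HCC1937, 6 to 17 positive and 10 to 22 negative differences, and 20 to 21 higher and 10 to 11 lower in the control comparison. The cause was not tested.

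Without E7, the sign turned for CENPH in MDA-MB-231 (-0.22, range over left-out libraries -0.22 to 0.27) and, for the difference, PMF1 (-0.36 to 0.37), BIRC5 (-0.10 to 0.19), CDCA8 (-0.18 to 0.39) and PTTG1 (-0.29 to 0.38), where the value without E7 is the positive end except for CDCA8. With the offset (principal-transcript value in brackets), it turned in MDA-MB-231 for MAD2L1, 1.23 (1.35), and AURKB, -0.43 (-0.42). In HCC1937 it turned for SPC25, 0.19 (0.44), MIS12, 0.41 (0.42), NSL1, 0.17 (0.31), BUB3, 1.30 (1.37), MAD2L1, 1.06 (1.15), TPX2, 0.17 (0.34), and PTTG1, -0.18. In the control comparison it turned for CENPH, 0.32 (0.31), CENPJ, 0.44 (0.38), CENPK, 0.94 (0.84), CENPQ, 0.24 (0.15), CENPU, 0.39 (0.37), CENPW, 0.23 (0.23), CENPX, -0.20 (-0.26), BUB1, 0.43 (0.40), BUB3, 0.16 (0.17), and DLGAP5, 0.51 (0.50).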
